A study of Homo sapiens with 8 samples.

Results

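The 10 genes described here cover iron import (TFRC, STEAP3 and SLC11A2), storage (FTH1, FTL and NCOA4), export (SLC40A1), sensing (IREB2) and heme breakdown (HMOX1 and HMOX2). They were chosen by name for these roles from a table of 60332 genes, and each had a row of its own. RNA was sequenced from SK-N-MC, an established Ewing sarcoma cell line, in 8 libraries that form 4 groups of 2. Every group carried dCas9-KRAB, a Cas9 without cutting activity fused to a transcriptional repressor. Control cells had received the empty dCas9-KRAB lentivirus and grew either in normoxia or, for the last 16 h, at 1% oxygen. eKD1 and eKD2 cells carried 1 guide each, directed beside the GGAA-repeat enhancer of LOXHD1, and their libraries analysed here were all from hypoxia, so that no difference in the oxygen response between control and knockdown cells could be fitted. Each of these lines was a polyclonal pool selected with puromycin, and each guide was tested in 1 pool. The study's methods describe the duplicates as biological, whereas the titles give only a replicate number, so the spread between duplicates may in part be technical.

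Cells take up iron bound to transferrin through the transferrin receptor, keep what they do not use in ferritin shells and release the excess through ferroportin. When iron is scarce, the iron regulatory proteins bind a small RNA hairpin, the iron-responsive element. At the 3′ end of the transferrin receptor mRNA this binding protects the message from decay, and at the 5′ end of a ferritin mRNA it blocks translation. Heme oxygenases open the heme ring and release its iron together with carbon monoxide and biliverdin. These facts are background, and only mRNA levels were measured here.

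The hairpins are shown because TFRC, FTH1, FTL and SLC40A1, genes of import, storage and export, all hold one in their mRNA. The search looked for the letters CNNNNNCAGTGN, in which the CAGTGN loop is closed by 5 base pairs and stands on a lower stem with at least 3 of 5 pairs, in the untranslated regions (UTRs) of protein-coding transcripts, on the transcribed strand only. It used GENCODE version 44 on GRCh37, the genome build of the files in another annotation release. A match was found in 4 of the 10 genes and in 47 of 19807 protein-coding genes (0.237%). In the 30-base windows below, written 5′ to 3′ as DNA, the capitals mark the first 5 bases of the loop.
TFRC hairpin 1, 3′ UTR, chr3:195777849-195777878, minus strand: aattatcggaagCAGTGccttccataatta
TFRC hairpin 2, 3′ UTR, chr3:195777445-195777474, minus strand: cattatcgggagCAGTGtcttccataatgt
TFRC hairpin 3, 3′ UTR, chr3:195777380-195777409, minus strand: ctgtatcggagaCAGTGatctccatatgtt
TFRC hairpin 4, 3′ UTR, chr3:195777333-195777362, minus strand: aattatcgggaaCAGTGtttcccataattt
FTH1 hairpin, 5′ UTR, chr11:61735045-61735074, minus strand: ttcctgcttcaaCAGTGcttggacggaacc
FTL hairpin, 5′ UTR, chr19:49468592-49468621, plus strand: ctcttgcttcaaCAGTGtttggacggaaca
SLC40A1 hairpin, 5′ UTR, chr2:190445386-190445415, minus strand: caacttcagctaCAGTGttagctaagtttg
The 4 TFRC matches began 3289, 3693, 3758 and 3805 bases from the start of a transcript of 5012 bases whose coding sequence ended at base 2351. The match in FTH1 began at base 33, that in FTL at base 27 and that in SLC40A1 at base 98, each before the coding sequence. A match is a description of the letters, and the lack of one in SLC11A2 or another gene says only that these letters were not in its annotated UTRs.

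**Figure D1:**
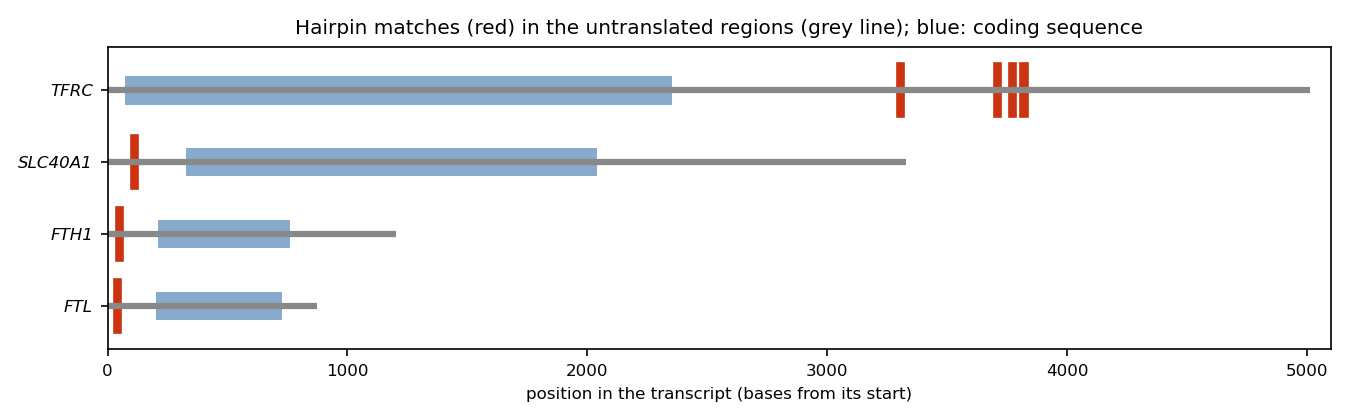
Position of the hairpin matches (red) along the transcripts of TFRC, SLC40A1, FTH1 and FTL, with the coding sequence in blue, the UTRs as a grey line and the distance from the transcript start in bases on the x axis. TFRC holds 4 matches after its coding sequence, and the other genes hold 1 each before theirs.

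Expression was given as FPKM, sequenced fragments divided by transcript length and by library size. Because FPKM is divided by length, levels can be compared between genes. Column totals ranged from 865107 FPKM in a control normoxia library to 1041457 FPKM in a control hypoxia library. Both normoxic totals were the lowest, both control hypoxia totals were the highest and the eKD totals lay between. Per library, 19310 to 20770 genes were above 0. LOXHD1, the gene next to the targeted enhancer, stood at 156 and 169 FPKM in control normoxia and fell to 93.0 and 91.1 FPKM in control hypoxia (log2 change -0.81, limma adjusted p = 0.0082). It stood at 17.3 and 15.0006 in the eKD1 libraries and at 11.7 and 11.8 in those of eKD2. All 6 hypoxia markers checked rose in the control cells, and CA9, which encodes a carbonic anhydrase, went from 0 in normoxia to 82.8 and 72.0 FPKM in hypoxia. All 7 Ewing sarcoma markers were above 1 FPKM. The 9 red cell markers summed to at most 0.277 FPKM, with HBA1, HBA2, HBB, HBG1, ALAS2 and SLC4A1 at 0 in every library. Of 7 monocyte and macrophage markers, 3 reached 1 FPKM (PTPRC, CD68 and AIF1), and the summed list was at 35.6 to 37.2 FPKM in control normoxia, 20.5 to 24.3 in control hypoxia, 25 to 26.8 in eKD1 and 26.9 to 27.6 in eKD2. CD14 and CSF1R stayed under 0.5 FPKM. The sum followed PTPRC, which fell from 22.5 and 23.8 to 4.87 and 5.39 FPKM in hypoxia, and its part in the iron gene results was not tested. Of 5 hepatocyte markers, HAMP and TTR were at 0 in every library and only APOA1 passed 1 FPKM.

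Ferritin dominated the levels of the 10 genes. By mean FPKM over the 8 libraries, the light chain FTL ranked 17 and the heavy chain FTH1 ranked 69 among the 15372 genes that reached 1 FPKM in at least 2 libraries. TFRC ranked 495 and HMOX2 1942. IREB2, SLC11A2, SLC40A1 and NCOA4 had means between 19.3 and 40.7 FPKM. HMOX1, with a mean of 0.834 FPKM, ranked 14577. STEAP3, the ferrireductase of the transferrin endosome, lay between 0.160 and 0.530 FPKM in all 8 libraries, did not reach the 1 FPKM needed for testing and was the only one of the 10 left untested. Neighbours in this order did not overlap over the 8 libraries, except for IREB2, SLC11A2, SLC40A1 and NCOA4 among themselves and HMOX1 with STEAP3.

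**Figure D2:**
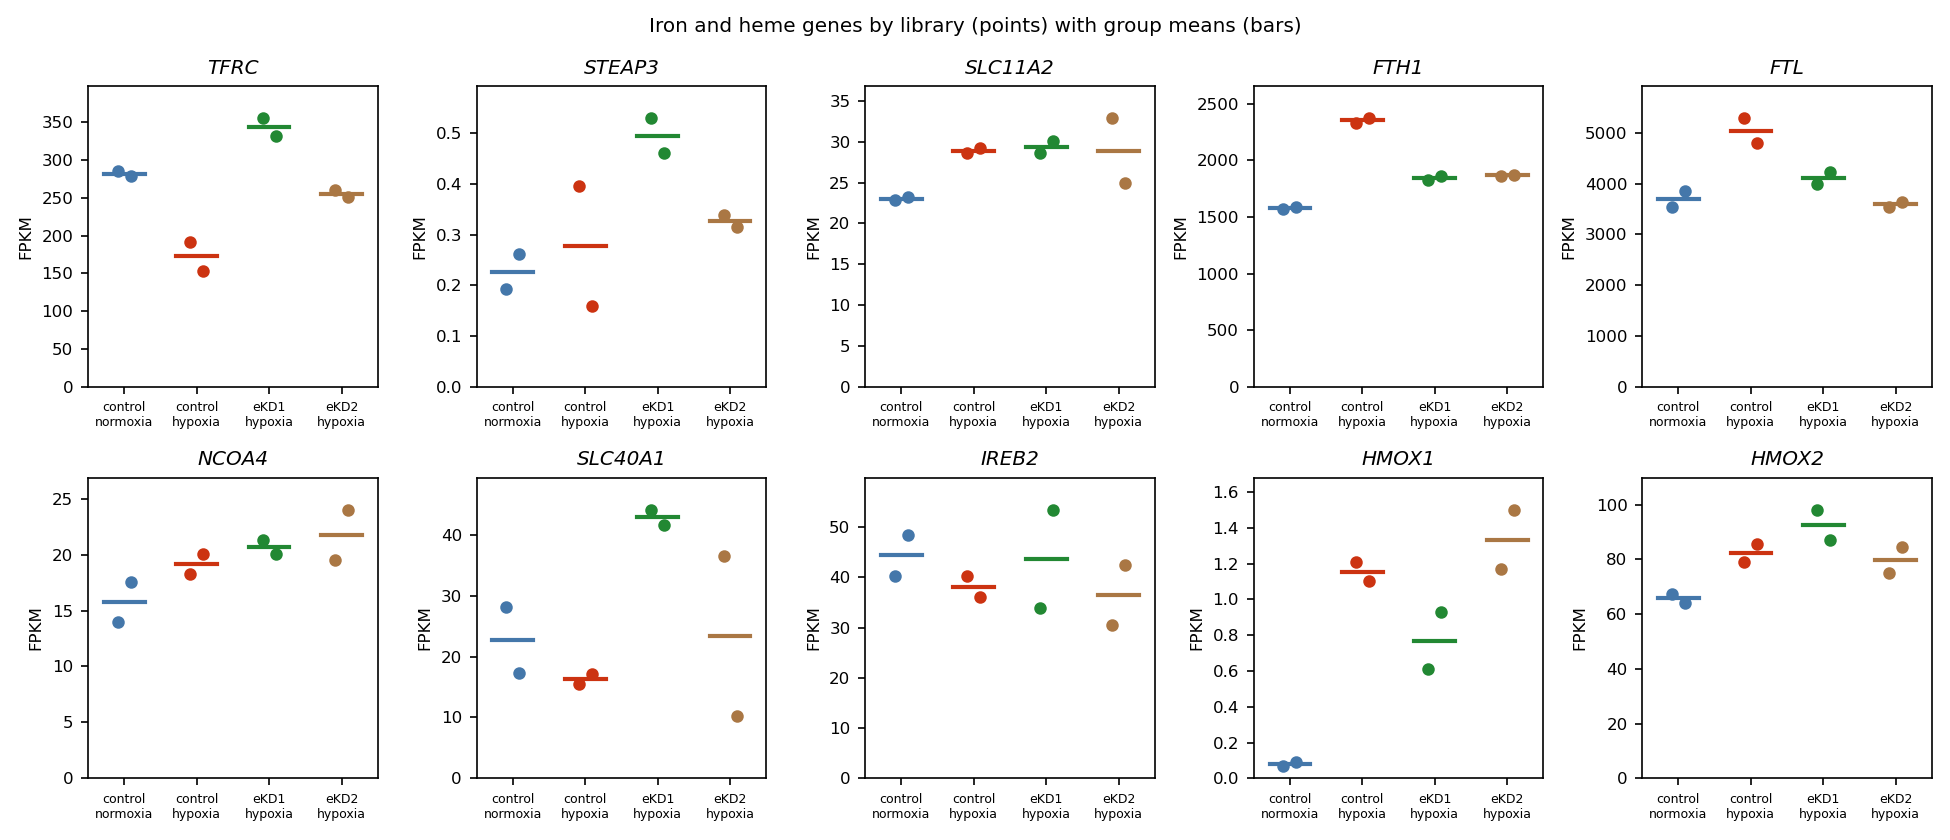
FPKM of the 10 genes (y axis, from 0) in the 2 libraries of each of the 4 groups (points), with the group mean as a bar. Control hypoxia is the lowest group for TFRC and the highest for FTH1 and FTL, and HMOX1 is near 0 only in control normoxia.

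The first comparison asked how hypoxia changed iron gene expression in control cells. Transferrin receptor mRNA fell while both ferritin mRNAs and both heme oxygenase mRNAs rose. Of the 9 tested genes, 5 rose and 1 fell with a limma adjusted p under 0.05. Only TFRC and FTH1 kept their calls when replicate number was added to the fit as a block. With columns rescaled to equal FPKM totals, FTL, HMOX2 and SLC11A2 lost theirs. Across all 15372 genes, 16.2% rose and 16% fell, so that changes were common. HMOX1 passed the filter on low values only through the hypoxic groups and therefore had to differ. The groups did not overlap for any of the 9 genes, against 70.4% of all genes tested. With any 1 library left out, limma called none of the 15372 genes in any comparison, whereas in a fit that shared the spread over the 7 remaining libraries TFRC, FTH1 and FTL passed whichever of the 4 libraries of this comparison was missing. In that fit HMOX1 did not pass without either control hypoxia library. In these bulk samples, an altered share of cells expressing a gene and an altered amount per cell cannot be told apart.

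TFRC, the receptor that carries transferrin-bound iron into the cell, stood at 285 and 279 FPKM in normoxia and at 192 and 154 FPKM in hypoxia. Both hypoxic libraries lay below both normoxic ones, with means of 282 ± 4.15 and 173 ± 26.6 FPKM (SD, n = 2 each). The difference on the log2(FPKM + 1) scale, used for all changes here, was -0.71 with a standard error (SE) of 0.121 and a limma adjusted p of 0.0244. SLC11A2, also called DMT1, moves ferrous iron out of the endosome. It stood at 22.9 and 23.2 FPKM in normoxia and at 28.6 and 29.2 FPKM in hypoxia, and the difference of 0.32 had an SE of 0.0755 and a limma adjusted p of 0.0483. This rise lay just inside the threshold and kept an adjusted p under 0.05 in 3 of 16 alternatives. The 2 tested import genes had changes of opposite sign, but the call of SLC11A2 depended on the settings.

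FTH1, the ferritin chain that oxidises iron for storage, had 1570.25 and 1589 FPKM in normoxia and 2331 and 2371 FPKM in hypoxia. The duplicates were close to each other, and the rise of 0.57 had an SE of 0.031 and a limma adjusted p of 0.00665. FTL, the chain that helps the mineral core form, had 3540.27 and 3846 FPKM in normoxia and 5289 and 4797 FPKM in hypoxia. Its log2 change was 0.45 (SE 0.0718, limma adjusted p = 0.022). With the columns rescaled to equal FPKM totals, a scaling under which the median of all genes moved to -0.19, the change of FTL was 0.21 with a limma adjusted p of 0.0623, whereas TFRC, FTH1 and HMOX1 kept their calls. Dividing each column by its total moves the changes of all genes in a comparison the same way. Under this scaling the change was 0.33 for FTH1, 0.08 for HMOX2 and -0.95 for TFRC, each lower than without it. Which scaling is right for these libraries was not tested. NCOA4, the receptor that delivers ferritin to the lysosome for breakdown, had 13.9 and 17.6 FPKM in normoxia and 18.2 and 20.1 FPKM in hypoxia (log2 change 0.27, limma adjusted p = 0.236).

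Ferroportin, encoded by SLC40A1, is the only known iron exporter of human cells. Its mRNA stood at 28.2 and 17.3 FPKM in normoxia and at 15.5 and 17.2 FPKM in hypoxia, and the normoxic duplicates were farther apart than the groups (log2 change -0.42, limma adjusted p = 0.293). IREB2 encodes iron regulatory protein 2, which binds the hairpin. It stood at 40.3 and 48.5 FPKM in normoxia and at 40.2 and 36.0 FPKM in hypoxia, a difference that did not pass the test (log2 change -0.21, limma adjusted p = 0.272). Neither gene passed under any alternative in this comparison.

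HMOX1, the inducible heme oxygenase, was near the lower end of the table in normoxia, at 0.0662 and 0.0904 FPKM, and at 1.21 and 1.10 FPKM in hypoxia. The limma log2 change was 1.00 (SE 0.164, adjusted p = 0.023), a size held down by the added 1, and it was 2.82 with 0.1 added. Because HMOX1 entered testing only through the hypoxic groups, this adjusted p is no independent support for a difference. The FPKM values of a gene are multiples of what 1 read is worth in a library. They were scaled by the relative depth of the libraries, read from low values. The step was set as the mean of the 2 scaled normoxic values (0.0503 each), so normoxia averaged 1 step by definition. In these steps, control hypoxia stood at 24 and 21, eKD1 at 10 and 11.3 and eKD2 at 18 and 23. The value lay within 0.1 of a whole step in 7 of 8 libraries, but this count includes the normoxic libraries, which do not test the step. Among the hypoxic libraries, only replicate 2 of eKD1 lay farther off. If 1 step is 1 read, 45 reads in hypoxia stand against 2 in normoxia, and after division by the relative depth of these libraries the ratio was 15.1. Its exact 95% interval, from 3.95 to 129, pools the 2 libraries of each group. It covers counting error only and not the spread between libraries, and like the adjusted p it is no independent support for a difference. HMOX2, the heme oxygenase that most cells make constantly, had 67.4 and 64.0 FPKM in normoxia and 78.9 and 85.7 FPKM in hypoxia. It rose by 0.32 (SE 0.0732) with a limma adjusted p of 0.0444, which stayed under 0.05 in 4 of 16 alternatives. The FPKM of HMOX2 was 1018 and 709 times that of HMOX1 in the normoxic libraries and 65.3 and 77.8 times in the hypoxic controls, so HMOX2 was the more abundant mRNA in both conditions, though the normoxic ratios rest on 1 step of HMOX1 per library.

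**Figure D3:**
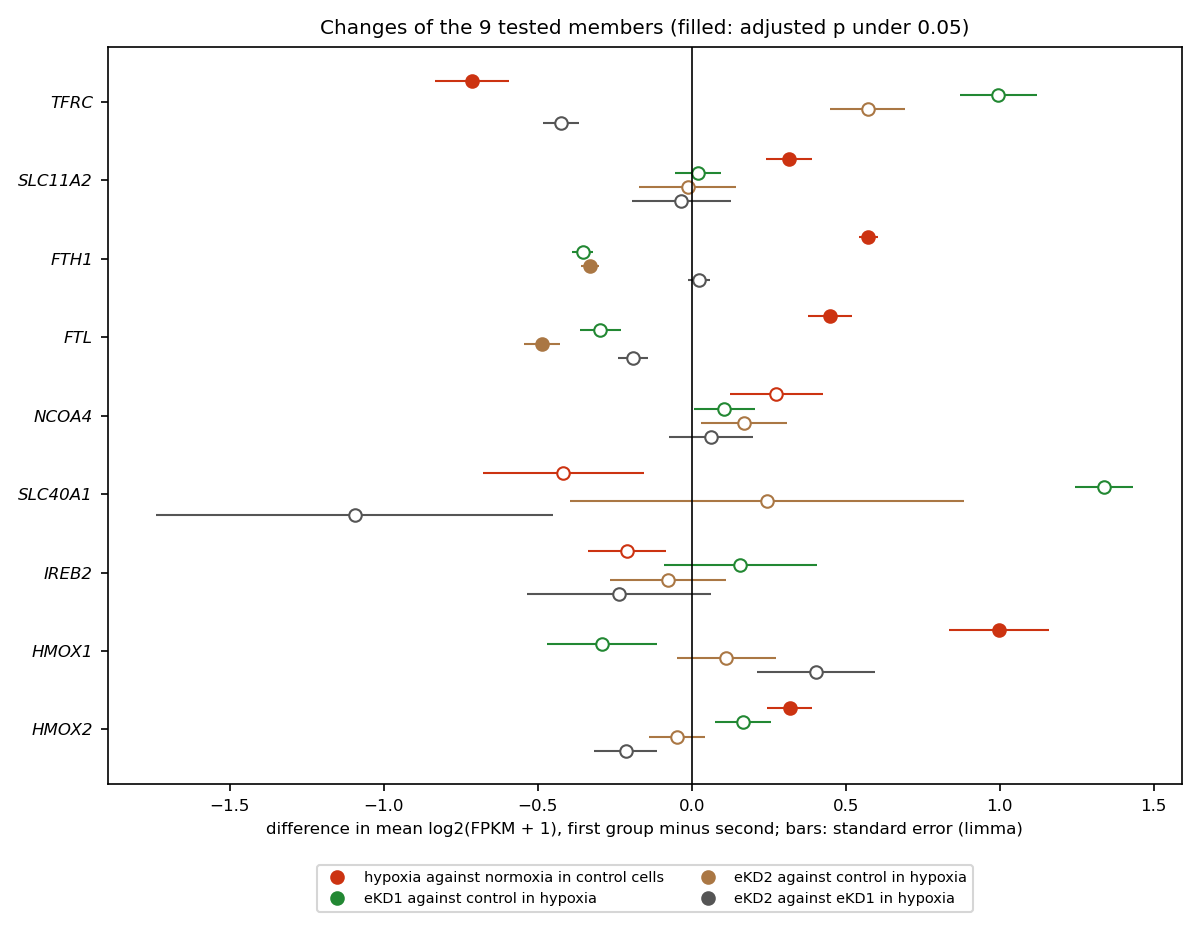
Difference in mean log2(FPKM + 1) (x axis, first group minus second, bars are limma standard errors) for the 9 tested genes in 4 comparisons, filled where the adjusted p was under 0.05. TFRC lies at -0.71 and FTH1 at 0.57 in hypoxia, and in eKD1 and eKD2 against control TFRC lies to the right of 0 while FTH1 and FTL lie to the left.

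The next comparisons asked how the same genes differed in hypoxia when the LOXHD1 enhancer was repressed. Both eKD comparisons share their control libraries with the comparison of hypoxia against normoxia, so a change of opposite sign in them is no independent result. In eKD2, FTH1 and FTL fell and none of the other 7 tested genes passed. Among all genes, 5.8% rose and 3.81% fell in eKD2. The 2 groups did not overlap for 3 of the 9 genes (TFRC, FTH1 and FTL), against 62.1% of all genes. In eKD1, no gene of the 9 passed by limma, although 4 had an unadjusted p under 0.05 (21.7% of all genes did). Only 0.013% of all genes rose and 0.052% fell in that comparison. The groups did not overlap for 6 of the 9 genes in eKD1, against 53.6% of all genes.

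Ferritin heavy chain mRNA measured 1823 and 1857 FPKM for eKD1 and 1864 and 1874 FPKM for eKD2, beside 2331 and 2371 FPKM in control hypoxia. All 4 eKD libraries were below both hypoxic controls and above both normoxic ones. For eKD1 the log2 change of FTH1 was -0.35 (SE 0.034, limma adjusted p = 0.102). For eKD2 it was -0.33 (SE 0.0293, limma adjusted p = 0.0284). The 2 lines differed by 0.02 in FTH1, with a limma adjusted p of 0.74. FTL measured 3985 and 4221 FPKM for eKD1 and 3547 and 3645 FPKM for eKD2, beside 5289 and 4797 FPKM in control hypoxia. Its log2 change was -0.30 for eKD1 (SE 0.0667, limma adjusted p = 0.147). For eKD2 it was -0.49 (SE 0.0594, limma adjusted p = 0.0345). The eKD2 values of FTL lay within the normoxic range of 3540.27 to 3846 FPKM. With columns rescaled to equal FPKM totals, the ferritin changes were smaller. They were -0.28 for eKD1 and -0.22 for eKD2 in FTH1, and -0.22 and -0.38 in FTL, and both eKD2 calls remained.

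TFRC measured 355 and 332 FPKM for eKD1 and 260.03 and 251 FPKM for eKD2, beside 192 and 154 FPKM in control hypoxia. All 4 eKD libraries lay above both hypoxic controls, and those of eKD1 also lay above both normoxic libraries. Neither difference passed, with a log2 change of TFRC of 1.00 for eKD1 (SE 0.126, limma adjusted p = 0.106) and of 0.57 for eKD2 (SE 0.122, limma adjusted p = 0.0698). When all 8 libraries shared 1 estimate of the spread, TFRC passed in both lines, with limma adjusted p of 0.0137 in eKD1 and 0.0155 in eKD2, and FTH1 passed in eKD1 as well (limma adjusted p = 0.00878). In that shared fit, TFRC did not pass in eKD1 without either eKD1 library, nor in eKD2 without either eKD2 library. FTH1 did not pass in eKD1 without replicate 1 of eKD1 or either control hypoxia library, with limma adjusted p from 0.0575 to 0.0871, and had 0.0493 without replicate 2 of eKD1. FTH1 and FTL passed in eKD2 whichever library was left out. Between the 2 lines TFRC differed by -0.42, eKD2 minus eKD1 (SE 0.0571, limma adjusted p = 0.083).

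SLC40A1 differed most between the duplicates. It had 44.2 and 41.6 FPKM in eKD1, beside 15.5 and 17.2 FPKM in control hypoxia, and the log2 change of 1.34 (SE 0.0938) had a limma adjusted p of 0.102. In eKD2 the duplicates were 36.5 and 10.2 FPKM, on either side of the controls. The mean log2 change of 0.24 in eKD2 (limma adjusted p = 0.826) became -0.62 when replicate 1 of eKD2 was left out and 1.11 when replicate 2 was left out, so no direction can be given. In eKD2 against eKD1 it was -1.10 (limma adjusted p = 0.387).

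The heme oxygenases and the remaining genes did not pass in either line. HMOX1 measured 0.608 and 0.928 FPKM for eKD1, a difference of -0.29 (limma adjusted p = 0.423). For eKD2 it measured 1.17 and 1.501 FPKM, a difference of 0.11 (limma adjusted p = 0.666). All 4 values were far above those in normoxia. HMOX2 measured 98.1 and 87.0 FPKM for eKD1 and 74.9 and 84.4 FPKM for eKD2, with limma adjusted p of 0.373 and 0.757. SLC11A2 measured 28.6 and 30.1 FPKM for eKD1 and 32.9 and 24.9 FPKM for eKD2, around the hypoxic controls. IREB2 duplicates lay far apart in both lines, with 33.9 and 53.5 FPKM for eKD1 and 30.6 and 42.4 FPKM for eKD2. NCOA4 ranged from 19.5 to 24.0 FPKM over the 4 eKD libraries. When eKD2 was set against eKD1, none of the 9 genes passed by limma, and 2 had an unadjusted p under 0.05, as did 23.6% of all genes. With adjustment, 0.286% of all genes rose and 0.117% fell. The groups did not overlap for 6 of the 9 genes, against 55.2% of all genes.

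The balance between storage and import mRNA sums up the pattern within each library. The summed FPKM of FTH1 and FTL was 17.9 and 19.5 times that of TFRC in control normoxia and 39.8 and 46.6 times in control hypoxia. It was 16.3 and 18.3 times in eKD1 and 20.8 and 22.0 times in eKD2. The hypoxic controls thus stood apart from the other 6 libraries. A permutation test of 2 against 2 libraries cannot reach a p under 0.05, and none was made of this ratio. The ratio of FTL to FTH1 moved less, from 1.90 to 2.42 over the 8 libraries, with both eKD2 libraries, at 1.90 and 1.95, below all others. Ferritin made up 0.568% to 0.732% of the column totals. Ferritin genes have many processed copies in the genome. The 25 FTH1 pseudogene rows summed to 1.29% to 3.21% of FTH1 and the 14 FTL rows to 0.237% to 0.431% of FTL, and adding them to the parent gene changed no call.

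**Figure D4:**
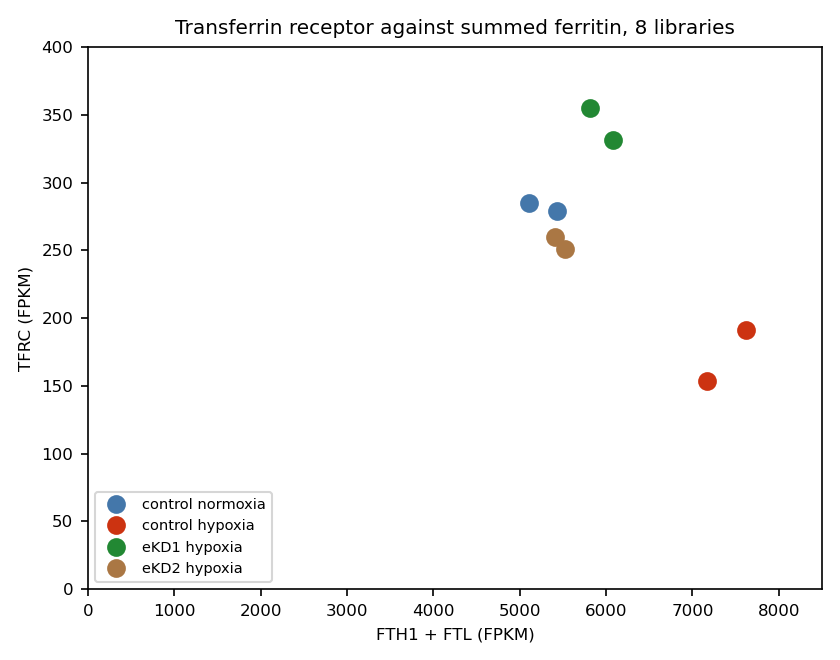
FPKM of TFRC (y axis) against the summed FPKM of FTH1 and FTL (x axis), both from 0, for each of the 8 libraries, coloured by group. The 2 control hypoxia libraries lie at the lower right, at 192 and 154 FPKM of TFRC, and the other 6 lie higher and to the left.

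The genes whose pattern was most like that of each gene that passed were sought among those with a mean of at least 5 FPKM, by Pearson's r of log2(FPKM + 1) over the 8 libraries. These are descriptions, and all points share the same 4 groups. TFRC was most like HOXB13, TMEM98 and PDE4A (r = 0.969 each). FTH1 was most like RPLP0 (r = 0.99), ACTG2 (0.988) and RPL12 (0.987), and FTL was most like HMCES (0.992), RPL24 (0.987) and RPSA (0.986). HMOX1 was most like AIDA (0.991), HIF3A (0.99) and IFT20 (0.989). HMOX2 was nearest to DEF8 (0.981) and SLC11A2 to NANP (0.954).

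Other genes of iron and heme handling were taken from lists chosen by function. Of 22 further genes of iron transport and regulation, 9 were expressed enough to test. In hypoxia 1 of the 9 rose and 2 fell, beside 16.2% and 16% of all genes. Their median log2 change was -0.06, beside 0.01 for all genes. FBXL5, the ubiquitin ligase subunit that marks IREB2 protein for breakdown when iron and oxygen are present, rose from 15.8 and 13.9 FPKM to 24.2 and 24.0 FPKM (log2 change 0.67, limma adjusted p = 0.0207). STEAP2, a metal reductase, fell from 31.4 and 30.4 FPKM to 13.2 and 13.6 FPKM (log2 change -1.15, limma adjusted p = 0.00809). PCBP1, a chaperone that hands iron to ferritin, fell by 0.42 on the log2 scale (limma adjusted p = 0.0115). ACO1, which encodes iron regulatory protein 1, was at 14.1 and 14.6 FPKM in normoxia and at 16.2 and 18.6 FPKM in hypoxia (limma adjusted p = 0.157). In eKD2, STEAP2 rose by 0.82 (limma adjusted p = 0.0305) and the metal transporter gene SLC39A14 by 0.34 (limma adjusted p = 0.0477), while none fell. Beside these, 5.8% of all genes rose and 3.81% fell in eKD2.

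Genes downstream and upstream of heme oxygenase were examined next. Of 11 genes of heme transport and bilirubin formation, all tested, 5 rose in hypoxia and none fell, beside 16.2% and 16% of all genes. Their median log2 change was 0.24, beside 0.01 for all genes. BLVRA and BLVRB, which encode biliverdin reductases A and B, both rose. BLVRA went from 13.8 and 14.0 to 35.5 and 41.9 FPKM, and BLVRB from 66.7 and 65.1 to 140 and 130.02 FPKM. Their log2 changes were 1.41 (limma adjusted p = 0.00841) and 1.02 (limma adjusted p = 0.00728). SLC48A1, a heme transporter of endosomes and lysosomes, rose by 0.84 (limma adjusted p = 0.0117), HEBP1, a heme-binding protein, by 0.81 (limma adjusted p = 0.00965) and LRP1, a receptor for heme carried by hemopexin, by 0.64 (limma adjusted p = 0.0178). None of the 11 passed in eKD1, where none had an unadjusted p under 0.05, or in eKD2, where 2 did. Of all genes, 21.7% in eKD1 and 32.8% in eKD2 had such an unadjusted p.

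Among the 12 heme synthesis genes tested, none rose past the threshold in hypoxia, beside 16.2% of all genes. Their median change was 0.26 on the log2 scale, beside 0.01 for all genes. In eKD2, CLPX, a mitochondrial protein unfoldase, rose by 0.60 over control hypoxia (limma adjusted p = 0.0421). Its eKD1 values, 45.3 and 37.9 FPKM, lay on either side of the hypoxic controls at 43.3 and 38.3 FPKM. Of 21 genes of mitochondrial iron and iron-sulfur cluster assembly, 4 rose and 1 fell in hypoxia, beside 16.2% and 16% of all genes. The mitochondrial iron importer SLC25A37 rose by 0.53, ferredoxin reductase FDXR by 0.74, BOLA3 by 0.78 and LYRM4 by 0.68, with limma adjusted p between 0.0148 and 0.0433. HSPA9, the mitochondrial chaperone, fell by 0.31 (limma adjusted p = 0.0383) and was higher by 0.46 in eKD2 (limma adjusted p = 0.0345), the only one of the 21 that passed there. The lines differed in direction. HSPA9 measured 686 and 684 FPKM in eKD2 but 442 and 380 FPKM in eKD1, below the hypoxic controls at 520 and 477 FPKM. Of all genes, 5.8% rose and 3.81% fell in eKD2.

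The 14 genes of HMOX1 regulation and NRF2 targets were all tested. In hypoxia 1 rose and 4 fell, beside 16.2% and 16% of all genes. MAFF, a small Maf protein, rose from 1.01 and 0.944 FPKM to 3.71 and 4.04 FPKM (log2 change 1.30, limma adjusted p = 0.0129). SLC7A11, the cystine transporter, fell by 1.41, NQO1, a quinone reductase, by 0.75, TXNRD1, a thioredoxin reductase, by 0.45 and NFE2L2, which encodes NRF2 itself, by 0.28, with limma adjusted p from 0.00809 to 0.0476. In eKD2, 2 of the 14 rose and none fell, beside 5.8% and 3.81% of all genes. The eKD2 libraries had 58.4 and 55.7 FPKM of SLC7A11, the hypoxic controls 6.42 and 6.05 FPKM and the eKD1 libraries 4.56 and 7.24 FPKM, and the log2 change of eKD2 was 3.004 (limma adjusted p = 0.00989). NFE2L2 rose by 0.92 in eKD2 (limma adjusted p = 0.0285). Its eKD1 values, 51.3 and 42.4 FPKM, lay on either side of the hypoxic controls at 44.5 and 45.6 FPKM. In eKD1, none of the 67 genes tested in these 5 lists passed by limma, and 13 had an unadjusted p under 0.05, beside 21.7% of all genes. In eKD2 against eKD1 none passed either, and 19 had an unadjusted p under 0.05, beside 23.6% of all genes.

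**Figure D5:**
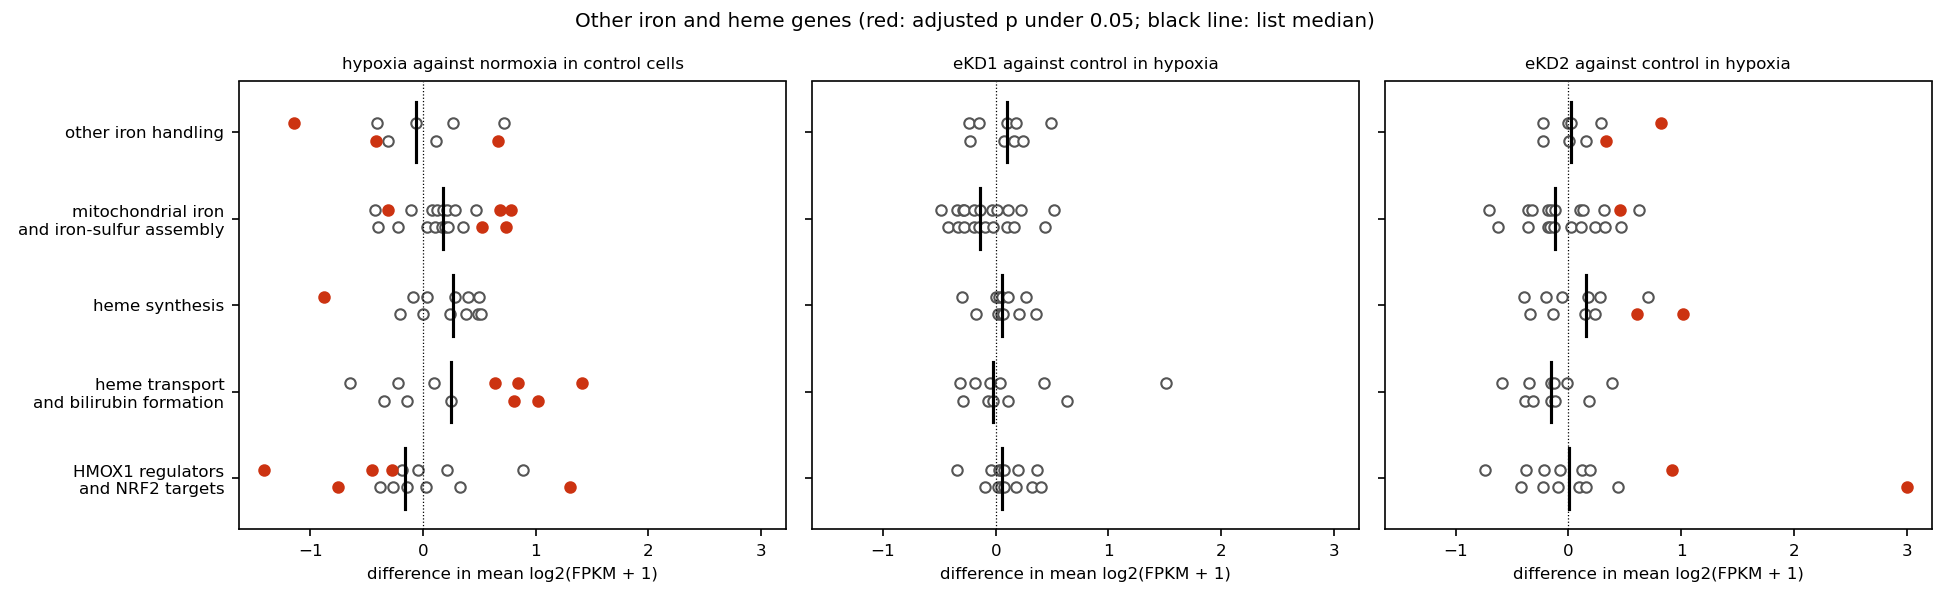
Difference in mean log2(FPKM + 1) (x axis) of the tested genes of 5 functional lists in hypoxia against normoxia, eKD1 against control and eKD2 against control, red where the limma adjusted p was under 0.05, with the list median as a black line. In the left panel, 5 genes of heme transport and bilirubin formation are red to the right of 0, and no gene is red in the middle panel.

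The genes with a match in the hairpin search were also set side by side, a list made after the values were known. A gene whose hairpin differs from the searched letters is not in this list. Of the 14 genes with a match in the 5′ UTR, 8 were tested. In hypoxia 3 of the 8 rose (FTH1, FTL and TMEM132A) and none fell, beside 16.2% and 16% of all genes. The other 5 changes lay below 0, and the list median was -0.08 on the log2 scale, beside 0.01 for all genes. In eKD2 the same 3 genes fell and none rose, beside 3.81% and 5.8% of all genes. Both comparisons again share the control hypoxia libraries. Because FTH1 and FTL were already reported above, the list added only TMEM132A to the called genes. TMEM132A, which encodes a membrane protein, had 61.9 and 73.1 FPKM in normoxia, 103 and 104 FPKM in control hypoxia and 72.3 and 65.0 FPKM in eKD2. SLC40A1, which also holds a match, did not pass by limma in any of these comparisons. Of the 33 genes with a match in the 3′ UTR, 30 were tested, of which 7 rose and 5 fell in hypoxia, TFRC among the latter, beside 16.2% and 16% of all genes. Their median log2 change was 0.04, beside 0.01 for all genes. In eKD2, 3 of the 30 rose and none fell, beside 5.8% and 3.81% of all genes.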

How the data were processed

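Poly-A selected RNA from 8 SK-N-MC libraries (4 groups of 2, taken from the sample titles) was sequenced with single-end reads of 75 bases. The authors aligned the reads to GRCh37 with STAR and used cufflinks and cuffnorm for gene values. The deposited table gives FPKM, and the scaling between libraries is not given in the sources used here. A count test, as the study used, needs reads that the table does not hold, so limma was used on log values.

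Values were analysed as log2(FPKM + 1), which understates changes of low genes. Testing was limited to the 15372 genes that 2 or more libraries listed at 1 FPKM or above. Each comparison was fitted alone in R 4.3.3 by lmFit and eBayes of limma 3.58.1, with the prior variance following the mean level. Two-sided p-values from limma received a Benjamini-Hochberg adjustment across these 15372 genes, and calls needed an adjusted p under 0.05.

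Absolute depth is unknown. Relative depth, from the most common ratio of values under 0.3 FPKM, was 55.7% to 100% of replicate 1 of control hypoxia, and lower depth makes low values such as those of HMOX1 less precise. Hairpins were searched with Python 3.11.15.

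The members and lists were chosen with earlier results of these data known. The 10 members were always named, and in each list and comparison up to 4 called genes were named, those with the largest changes whose groups did not overlap and whose higher group averaged 5 FPKM or more. HSPA9 in hypoxia, LRP1, MAFF, ACO1 and TMEM132A were named outside this rule, after their values were seen. The settings tried beside this were 0.1 as pseudocount, testing every row or only genes averaging 5 FPKM, columns rescaled by the median of ratios or to equal totals, all 8 libraries in 1 shared fit, replicate number as a block, a constant prior variance, pseudogene rows added and omission of each library. Omission within the shared fit was added after seeing the data. The result for 1 gene of the heme synthesis list is not reported here.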

Additional observations from a re-analysis of the deposited data

How the results depend on the processing

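The number of the 9 tested genes called in hypoxia was 6, and it was 3 with equal FPKM totals, 2 with a replicate block, 3 without a variance trend and 0 to 4 with 1 library left out. In eKD1 it was 0, and 4 without a filter, 2 in the shared fit and 0 to 1 with a library left out. In eKD2 it was 2, and 0 with a replicate block, 0 without a variance trend and 0 to 3 with a library left out. Between the lines it was 0, and 3 without a filter. Over the 5 functional lists, 19 genes were called in hypoxia, against 11 with a replicate block and 0 to 19 with a library left out. In eKD1 0 were called, against 5 without a filter, 2 in the shared fit and 0 to 1 with a library left out. In eKD2 7 were called, against 15 without a filter, 16 in the shared fit, 0 with a replicate block, 1 without a variance trend and 0 to 5 with a library left out. Between the lines 0 were called, against 11 without a filter, 1 with the filter at a mean of 5 FPKM, 12 in the shared fit and 0 to 5 with a library left out. Without a filter, 33177 rows at 0 in every library, which have no spread, entered the fit. Fits without 1 library called 0 genes of any kind unless the spread was shared. Other causes were not tested.

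Over all genes, 4946 were called in hypoxia (2570 with a replicate block), 10 in eKD1 (2194 without a filter, 761 in the shared fit, 0 with a replicate block, 6 without a trend), 1477 in eKD2 (4115, 2601, 0 and 28 in the same order) and 62 between the lines (2413, 1391, 0 and 5, and 105 with the filter at a mean of 5 FPKM). Equal FPKM totals moved the median log2 change of all genes to -0.19 in hypoxia and 0.14 in eKD2, and the share of called genes that were higher from 50.3% to 28.4% and from 60.3% to 77.5%, the latter being 46.3% with median-of-ratios rescaling. The deviations of libraries with the same replicate number correlated at -0.04, 0.04, 0.01 and -0.05 in the 4 comparisons. These values show no large shared replicate effect, but they cannot tell whether the libraries were paired by design.

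No call of a member changed sign. Uncalled changes that did were those of SLC11A2 in eKD1 (-0.0014 with median-of-ratios rescaling, -0.0166 to 0.0575 with a library left out), IREB2 in eKD1 (-0.16 to 0.48), SLC11A2 in eKD2 (0.0897 with equal totals, -0.21 to 0.18), SLC40A1 in eKD2 (-0.62 to 1.11), IREB2 in eKD2 (0.026 with equal totals, -0.31 to 0.15) and HMOX2 in eKD2 (0.0581 with equal totals, -0.13 to 0.0381). Between the lines they were those of SLC11A2 (-0.23 to 0.16), FTH1 (-0.0269 with median-of-ratios rescaling), NCOA4 (-0.0817 to 0.21) and IREB2 (-0.56 to 0.0849). Without read counts, depth limits what can be said of HMOX1 and STEAP3.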

Other observations

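Some other genes of heme handling had duplicates that lay far apart, and these values were noticed after the tests. Hemopexin (HPX), a carrier of free heme, was at 33.5 FPKM in replicate 1 of eKD1 and at 1.32 FPKM in replicate 2, while the other 6 libraries lay between 0.974 and 4.16 FPKM. FLVCR2, a membrane transporter, was at 16.9 FPKM in replicate 1 of control normoxia and at 0.0852 FPKM in replicate 2. Neither gene passed in any of the 4 comparisons. FECH, the enzyme that inserts iron into heme, was at 19.9 and 20.7 FPKM in control normoxia and at 26.6 and 32.4 FPKM in control hypoxia, just outside the threshold (log2 change 0.51, limma adjusted p = 0.0527). KEAP1, which marks NRF2 for breakdown, measured 82.4 and 79.1 FPKM for eKD1 and 56.6 and 50.8 FPKM for eKD2, without overlap (log2 change -0.58, eKD2 minus eKD1, limma adjusted p = 0.0854).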
